A study of Mus musculus with 11 samples.

Results

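The genes described here make microRNAs and put them to work: Drosha, Dgcr8, Xpo5, Dicer1, Tarbp2, Ago1, Ago2, Ago3, Tnrc6a and Tnrc6b. They were chosen by gene symbol, and each of the 10 matched 1 of the 53947 gene rows of the deposited table and was abundant enough to test. Messenger RNA was sequenced from alphaTC1-6 cells, a line of glucagon-producing alpha cells from mouse pancreas, with Mettl3 knocked down (Mettl3 KD, 4 libraries), with Mettl14 knocked down (Mettl14 KD, 4 libraries) or with a scramble control (3 libraries). All cells were transfected while being plated, at 70% confluency, and were collected 72 h after knockdown. The sources used here name neither the knockdown reagent nor the genotype of the line, and all groups come from 1 cell line. Whether replicates came from separate cultures is not labelled, so the p-values speak of the spread among these libraries alone, which may be technical.

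MicroRNAs begin as hairpins within long nuclear transcripts. Drosha, an RNase III enzyme, cuts the hairpin free with its RNA-binding partner Dgcr8, and Xpo5 (exportin 5) carries it to the cytoplasm. Dicer1, with its cofactor Tarbp2, cuts off the loop, and an Argonaute protein keeps a single strand as guide. Ago2 is the Argonaute best known for slicing a target. The GW182 scaffolds, encoded by the Tnrc6 genes, link Argonautes to the enzymes that shorten the poly(A) tail and end translation of the target. In islet cells, deletion of Dicer1 in mice is known to impair insulin-producing beta cells. The complex of Mettl3 and Mettl14 writes N6-methyladenosine, m6A, on RNA, and Mettl3-dependent m6A in primary microRNA transcripts is known from other cells to aid recognition by Dgcr8. Neither m6A nor mature microRNAs were measured here.

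Ago1 was the member that differed most. Its level was 44.6 ± 1.45 CPM in Mettl3 KD, 55.0 ± 0.954 CPM in Mettl14 KD and 58.1 ± 0.908 CPM in scramble (SD, n = 4, 4 and 3), where CPM is the count scaled to a library size of 1e6 after normalisation between libraries. In Mettl3 KD Ago1 fell by 23.3% against scramble, and it was 18.9% lower than in Mettl14 KD. The nuclear processors Drosha and Dgcr8 and the Dicer1 cofactor Tarbp2 rose by 6.76% to 16.6% in Mettl3 KD, and Ago2 fell by 6.56%. In Mettl14 KD only Drosha, of these 10 genes, passed the test, with a rise of 6.10%. Among all 14133 tested genes, 31.3% passed in Mettl3 KD and 20.9% in Mettl14 KD. Of the member calls in Mettl3 KD, that of Ago1 held in all 11 fits with 1 library left out. Each of the others was lost in 1 to 3 of those fits. The call of Drosha in Mettl14 KD was lost in 9 of them.

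Library totals ran from 19576632 to 22406527 counts, lowest in scramble replicate 2. The targeted transcripts went with the labels: Mettl3 averaged 5.34 ± 0.449 CPM in Mettl3 KD against 14.9 ± 1.02 CPM in scramble, and Mettl14 averaged 14.7 ± 0.720 CPM in Mettl14 KD against 25.2 ± 1.70 CPM in scramble. The knockdowns differed in depth, with log2 fold changes of -1.48 for Mettl3 in Mettl3 KD and -0.78 for Mettl14 in Mettl14 KD. Mettl14 rose in Mettl3 KD (0.22, edgeR adjusted p = 0.00494), and Mettl3 did not pass in Mettl14 KD (0.05, edgeR adjusted p = 0.692). The part of this depth in differences between the knockdowns was not tested. All 12 listed alpha cell markers passed the filter, and their summed level was 44280 to 46190 CPM in Mettl3 KD, 49530 to 51860 CPM in Mettl14 KD and 40060 to 48480 CPM in scramble. Of 8 beta cell markers 4 passed the filter, with a sum of 117 to 124 CPM in Mettl3 KD, 116 to 119.5 CPM in Mettl14 KD and 134 to 155 CPM in scramble. The delta, PP and epsilon markers summed to between 1973 and 2210 CPM in all 3 groups, with 1 of 6 tested and Ppy at 0. The others did not pass the filter on low counts, so this sum rests almost wholly on 1 gene. Acinar and ductal markers, 3 of 9 tested and Ptf1a, Cftr and Prss2 at 0, summed to 15.7 to 19.5 CPM in Mettl3 KD, 15.7 to 19.7 CPM in Mettl14 KD and 19.7 to 22.7 CPM in scramble. Mesenchymal, endothelial and immune markers, 6 of 9 tested, summed to 10.7 to 14.3 CPM in Mettl3 KD, 7.52 to 10.3 CPM in Mettl14 KD and 8.97 to 32.3 CPM in scramble. Scramble replicate 2 stood apart: 9 lung and blood transcripts summed to 126 CPM there, against 2.12 to 5.84 CPM in the other libraries. Its alpha cell sum was 40060 CPM, against 48249 and 48479 CPM in scramble replicates 1 and 3. The sums of those replicates lie above all Mettl3 KD libraries and below all Mettl14 KD libraries. Mesenchymal, endothelial and immune markers summed to 32.3 CPM in scramble replicate 2, against 8.97 and 9.15 CPM in replicates 1 and 3. Its beta cell sum was 155 CPM, against 140 and 134 CPM in those. The part of these markers in the results below was not tested, but each call on these genes that changes without scramble replicate 2 is given with and without it. In bulk RNA, fewer cells of a type and less RNA per cell cannot be told apart.

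GGACT is a common form of the sequence context in which m6A is written, so the letters were searched on the transcript strand of the longest coding transcript of each gene (GENCODE M21, build GRCm38). The motif was present in 92.6% of the 12196 tested genes that had such a transcript, at a median of 3 per transcript, and in every member. Ago1 held 9, of which 7 lay in the 3′ UTR and 1 in the coding sequence, and Ago2 held 15, of which 13 lay in the 3′ UTR. Ago3 held 14, Tnrc6b 23, Dicer1 13, Xpo5 8, Tnrc6a 4, Drosha 3, Dgcr8 2 and Tarbp2 1. Per kilobase of transcript the median over all tested genes was 1.04 motifs. Xpo5 at 1.57, Tnrc6b at 1.33, Dicer1 at 1.32, Ago1 at 1.25 and Ago2 at 1.09 motifs per kb lay above it. Ago3 at 0.898, Drosha and Tarbp2 at 0.657 each, Tnrc6a at 0.489 and Dgcr8 at 0.463 motifs per kb lay below it. Members that passed the test and members that did not stood on both sides of the median. Of those that passed in Mettl3 KD, Ago1 and Ago2, which fell, lay above it, Ago2 by a small margin. Drosha, Dgcr8 and Tarbp2, which rose, lay below it. A link between motif density and change was not tested. Within 100 bases on either side of the end of the stop codon, where m6A is known to be frequent, Dicer1 and Xpo5 held a motif and the other 8 members did not, and 24.6% of 11677 such windows over all genes held one. The sites nearest the stop codon are shown for the 5 members that passed the test in Mettl3 KD and for Dicer1 and Xpo5, whose sites lie closest to it. Capitals mark GGACT, with 8 bases on each side.
Drosha (coding sequence, 2195 bases before the end of the stop codon): gtgtgaaaGGACTtgaactgt
Dgcr8 (coding sequence, 946 bases before): aaaattcaGGACTtgggctga
Tarbp2 (coding sequence, 338 bases before): gcctggatGGACTgaggaatc
Ago1 (coding sequence, 1040 bases before): cctactcaGGACTgcagctca
Ago2 (coding sequence, 492 bases before): ctggagaaGGACTatcagcca
Dicer1 (3′ UTR, 8 bases after): aagcttccGGACTcacaggcg
Xpo5 (coding sequence, 26 bases before): aggagggtGGACTggccacca

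These are letters in reference transcripts and do not show that a site is methylated.

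Levels were set side by side per kilobase of the longest coding transcript. In scramble, Drosha stood highest at 29.2 ± 0.482 CPM per kb (mean ± SD), followed by Xpo5 at 25.8 ± 0.275 and Tnrc6a at 17.0 ± 0.659. Dgcr8 at 13.8 ± 0.928 and Tarbp2 at 13.8 ± 1.18 CPM per kb did not differ beyond their spread. Ago2 at 9.10 ± 0.265 and Ago1 at 8.04 ± 0.126 came next, then Dicer1 at 6.23 ± 0.264, Tnrc6b at 3.88 ± 0.126 and Ago3 at 2.58 ± 0.0254 CPM per kb. In Mettl3 KD, Ago1 at 6.17 ± 0.201 CPM per kb stood below Dicer1 at 6.63 ± 0.174 CPM per kb, and in Mettl14 KD, as in scramble, it stood above it, at 7.61 ± 0.132 against 6.57 ± 0.252 CPM per kb. This order rests on the transcript chosen: with the median length of its coding transcripts in place of the longest, Ago3 had 58.9 CPM per kb in scramble.

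Of the 10 members, 5 passed edgeR's quasi-likelihood test, with p adjusted by Benjamini-Hochberg and a threshold of 0.05, in Mettl3 KD against scramble, where 31.3% of the 14133 tested genes did. Drosha, Dgcr8 and Tarbp2 rose and Ago1 and Ago2 fell, while 15.5% of all tested genes rose and 15.8% fell. The median log2 fold change over the members was 0.06, against -0.00 over all tested genes. In 6 members the Mettl3 KD and scramble libraries did not overlap, 3 of them higher in Mettl3 KD, while 35.5% of all tested genes did not overlap and 17.5% were higher without overlap. In Mettl14 KD against scramble, Drosha alone passed, where 20.9% of all tested genes did, and the members' median was 0.07, against 0.00 over all genes. In 4 members the Mettl14 KD and scramble libraries did not overlap, 2 of them higher in Mettl14 KD, against 28.9% and 14.4% of all tested genes. Both knockdowns were set against the same scramble libraries, so the 2 comparisons are not independent. Most differences were small, and the common biological coefficient of variation across replicates was 4.38%.

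**Figure D1:**
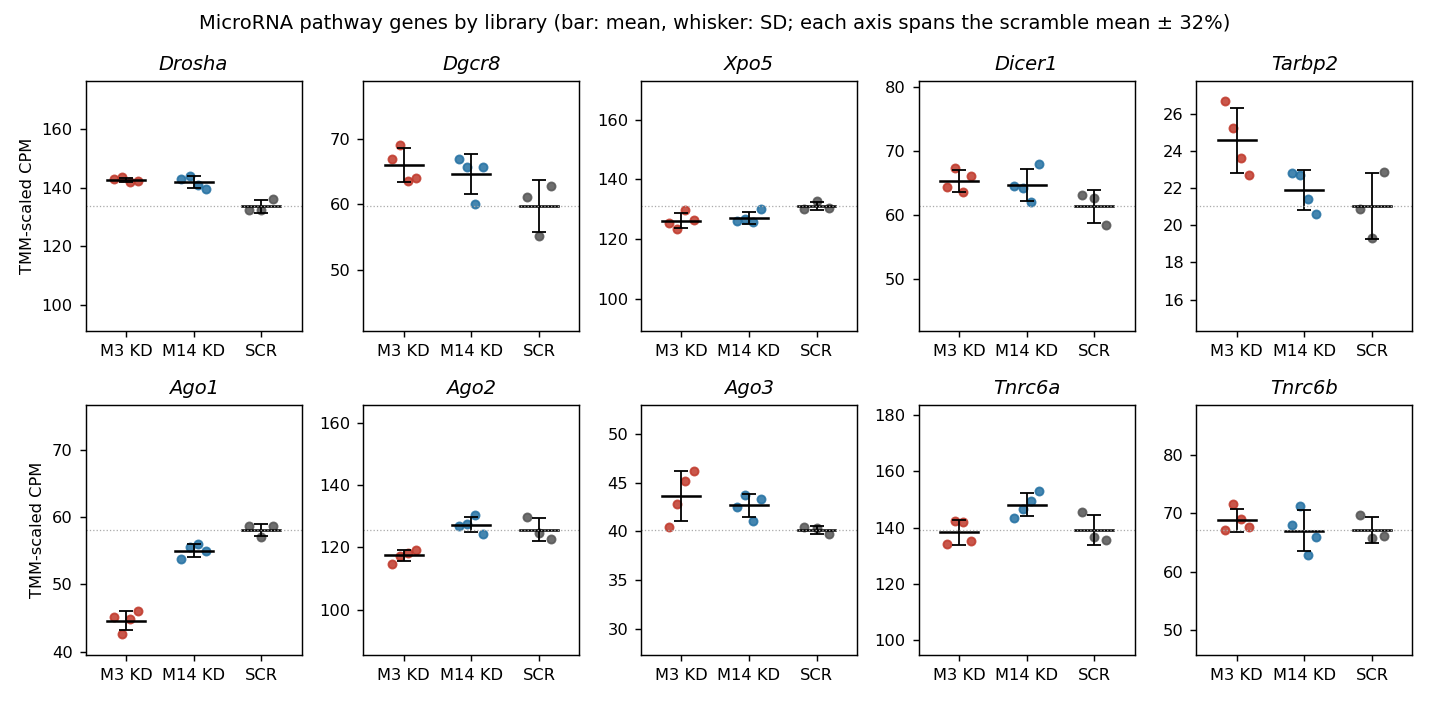
Level of each member in CPM (vertical axes, linear, each spanning the same percentage above and below the scramble mean) in Mettl3 KD, Mettl14 KD and scramble, with a point for each library and bars for the mean and SD. The 4 Ago1 points of Mettl3 KD, 42.6 to 46.0 CPM, lie below all 7 others.

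Drosha (ENSMUSG00000022191), the nuclease that starts microRNA maturation, had 142.8, 143.7, 142.0 and 142.3 CPM in Mettl3 KD. It had 143.0, 144.0, 140.9 and 139.4 CPM in Mettl14 KD and 132.5, 132.3 and 136.2 CPM in scramble. Every knockdown library was above every scramble library. On the log2 scale the change was 0.09 ± 0.03 in Mettl3 KD (SE; edgeR adjusted p = 0.0195) and 0.09 ± 0.03 in Mettl14 KD (edgeR adjusted p = 0.0455). The rise in Mettl3 KD no longer passed without scramble replicate 1 or without a filter on low counts (edgeR adjusted p = 0.0606), and without scramble replicate 2 it was 0.09 (edgeR adjusted p = 0.0321). The rise in Mettl14 KD was between 0.08 and 0.11 with 1 library left out, and it passed only in the fits without scramble replicate 3 or Mettl14 KD replicate 4, not in the other 9. It did not pass without a filter or in a fit of only Mettl14 KD and scramble either (edgeR adjusted p = 0.124 and 0.103).

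Dgcr8 (ENSMUSG00000022718), the double-stranded RNA-binding partner of Drosha, had 67.0, 69.1, 63.6 and 64.1 CPM in Mettl3 KD. It had 67.0, 65.7, 60.1 and 65.8 CPM in Mettl14 KD and 61.2, 55.2 and 62.8 CPM in scramble. All Mettl3 KD libraries were above scramble, and Mettl14 KD replicate 3 lay within the scramble range. The fitted log2 fold change was 0.14 ± 0.05 in Mettl3 KD (edgeR adjusted p = 0.0295) and 0.11 ± 0.05 in Mettl14 KD (95% interval 0.01 to 0.21, edgeR adjusted p = 0.106). Without scramble replicate 2, the lowest library, the change in Mettl3 KD was 0.09 and did not pass. It did not pass without Mettl3 KD replicate 1 or 2 either. The change in Mettl14 KD passed without scramble replicate 3 and without Mettl14 KD replicate 3. The count ratio of Drosha to Dgcr8 was 2.17 ± 0.0735 in Mettl3 KD, 2.20 ± 0.103 in Mettl14 KD and 2.24 ± 0.132 in scramble. Of the 31-base words of the Dgcr8 transcript, 27.97% also occur in another gene, chiefly its neighbour Trmt2a, which encodes a tRNA methyltransferase, and the sources used here do not give the strand setting of the authors' counting. Trmt2a did not pass in Mettl3 KD (log2 fold change 0.05, edgeR adjusted p = 0.294) or in Mettl14 KD (-0.06, edgeR adjusted p = 0.306).

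Xpo5 (ENSMUSG00000067150), which exports the hairpin, had 125.4, 123.3, 129.5 and 126.3 CPM in Mettl3 KD. It had 126.0, 126.6, 125.8 and 129.9 CPM in Mettl14 KD and 130.1, 132.6 and 130.3 CPM in scramble. Every knockdown library was below every scramble library, by a small margin. Its log2 fold change was -0.05 ± 0.03 in Mettl3 KD (95% interval -0.12 to 0.01, edgeR adjusted p = 0.189) and -0.04 ± 0.03 in Mettl14 KD (95% interval -0.11 to 0.02, edgeR adjusted p = 0.339), and neither passed.

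Dicer1 (ENSMUSG00000041415), which cuts the exported hairpin to a duplex, had 64.4, 67.4, 63.6 and 66.1 CPM in Mettl3 KD. It had 64.5, 64.2, 62.0 and 67.98 CPM in Mettl14 KD and 63.0, 62.7 and 58.4 CPM in scramble. The Mettl3 KD libraries all lay above scramble and the Mettl14 KD libraries overlapped it, yet neither change passed the test. The change in log2 units was 0.09 ± 0.04 in Mettl3 KD (95% interval 0.01 to 0.18, edgeR adjusted p = 0.0979) and 0.08 ± 0.04 in Mettl14 KD (95% interval -0.01 to 0.16, edgeR adjusted p = 0.202).

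Tarbp2 (ENSMUSG00000023051), the RNA-binding cofactor of Dicer1, had 26.7, 25.3, 23.6 and 22.7 CPM in Mettl3 KD. It had 22.8, 22.7, 21.4 and 20.6 CPM in Mettl14 KD and 20.9, 19.3 and 22.9 CPM in scramble. Mettl3 KD replicates 1 to 3 were above scramble and replicate 4 lay within its range. On the log2 scale the change was 0.22 ± 0.07 in Mettl3 KD (edgeR adjusted p = 0.0140) and 0.06 ± 0.07 in Mettl14 KD (95% interval -0.08 to 0.20, edgeR adjusted p = 0.605). The rise in Mettl3 KD did not pass without scramble replicate 2, where it was 0.17, or without Mettl3 KD replicate 1, where it was 0.18. Tarbp2 had the lowest counts of the members, 386 to 596 per library, and 53.9% of the 31-base words of its transcript also occur in other genes. Those are the pseudogenes Gm18584, at most 0.226 CPM in any library, and Gm18561, at 0.

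Ago1 (ENSMUSG00000041530) encodes an Argonaute that loads microRNAs and, in mammals, is not known as an efficient slicer. It had 45.1, 42.6, 44.8 and 46.0 CPM in Mettl3 KD. It had 53.7, 55.5, 55.9 and 54.9 CPM in Mettl14 KD and 58.6, 57.1 and 58.6 CPM in scramble. The 3 groups did not overlap, with Mettl3 KD lowest and scramble highest. The log2 fold change in Mettl3 KD was -0.38 ± 0.04 (95% interval -0.46 to -0.30, edgeR adjusted p = 2.13e-07), and 1325 of the 14133 tested genes, 9.38%, had a lower one. In Mettl14 KD it was -0.08 ± 0.04 (95% interval -0.16 to -0.00, edgeR adjusted p = 0.143) and did not pass. The fall in Mettl3 KD passed under every setting tried, between -0.40 and -0.36, and was -0.39 without scramble replicate 2. Only 2.27% of the 31-base words of Ago1 occur in another gene, most often in Ago3, Ago2 or Ago4. All 11 of its estimated counts were whole numbers, between 952 and 1307.

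Ago2 (ENSMUSG00000036698), the slicing Argonaute, had 114.8, 117.3, 118.2 and 119.2 CPM in Mettl3 KD. It had 126.9, 127.3, 130.4 and 124.4 CPM in Mettl14 KD and 129.7, 124.6 and 122.6 CPM in scramble. The Mettl3 KD libraries lay below all others, and the Mettl14 KD libraries overlapped scramble. The fitted log2 fold change was -0.10 ± 0.03 in Mettl3 KD (edgeR adjusted p = 0.0251) and 0.02 ± 0.03 in Mettl14 KD (95% interval -0.05 to 0.09, edgeR adjusted p = 0.725). The fall in Mettl3 KD did not pass without scramble replicate 1, nor without Mettl3 KD replicate 1. It did not pass without a filter or in a fit of only Mettl3 KD and scramble (edgeR adjusted p = 0.0878 and 0.0629), and it was -0.10 without scramble replicate 2 (edgeR adjusted p = 0.0166). Of its 31-base words, 7.41% occur in other genes, among them Chrac1, a neighbour that encodes a histone-fold protein. Chrac1 rose in Mettl3 KD (log2 fold change 0.33, edgeR adjusted p = 0.000152). All 11 estimated counts of Ago2 were whole, as for Ago1. Of the other members that passed in Mettl3 KD, Drosha had 4 of 11 counts not whole, Dgcr8 7 and Tarbp2 8.

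Ago3 (ENSMUSG00000028842), an Argonaute with weak slicing of certain targets in humans, had 40.4, 42.8, 45.2 and 46.2 CPM in Mettl3 KD. It had 42.6, 43.7, 41.1 and 43.3 CPM in Mettl14 KD and 40.4, 40.4 and 39.7 CPM in scramble. All Mettl14 KD libraries were above scramble, while Mettl3 KD replicate 1 was level with it. Its log2 fold change was 0.12 ± 0.05 in Mettl3 KD (95% interval 0.02 to 0.22, edgeR adjusted p = 0.0537) and 0.09 ± 0.05 in Mettl14 KD (95% interval -0.01 to 0.18, edgeR adjusted p = 0.197). Without Mettl3 KD replicate 1 the change in Mettl3 KD was 0.15 and passed.

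Ago4, the remaining mouse Argonaute, was the lowest of the family per kilobase of transcript, at 1.10 CPM per kb in scramble. Its level was 8.16 ± 0.525 CPM in Mettl3 KD, 9.11 ± 1.10 CPM in Mettl14 KD and 7.22 ± 0.279 CPM in scramble. It rose in Mettl14 KD by 0.34 ± 0.09 on the log2 scale (edgeR adjusted p = 0.0139), a call that ended without Mettl14 KD replicate 3, and did not pass in Mettl3 KD (0.18 ± 0.10, edgeR adjusted p = 0.168). As shares of the counts of all 4 Argonaute genes, Ago1 made up 20.9% ± 0.631 in Mettl3 KD, 23.5% ± 0.319 in Mettl14 KD and 25.1% ± 0.514 in scramble. Ago2 made up 54.9% ± 0.595 in Mettl3 KD, 54.4% ± 0.455 in Mettl14 KD and 54.3% ± 0.573 in scramble. Ago3 made up 20.4% ± 0.725 in Mettl3 KD, 18.2% ± 0.656 in Mettl14 KD and 17.4% ± 0.231 in scramble. The shares are not scaled for length and were not tested. Ago1 thus exceeded Ago3 in the counts of Mettl14 KD and scramble, whereas in Mettl3 KD the shares of Ago1, 20.1% to 21.7%, and of Ago3, 19.4% to 21.0%, overlapped. The summed level of the 4 genes was 214 ± 5.32 CPM in Mettl3 KD, 234 ± 2.64 CPM in Mettl14 KD and 231 ± 4.32 CPM in scramble.

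**Figure D2:**
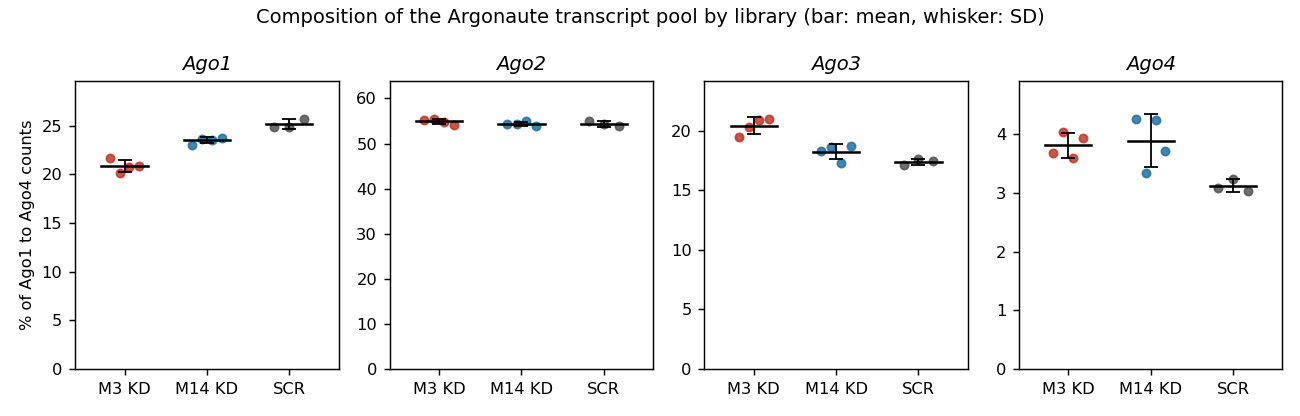
Share of the counts of Ago1 to Ago4 taken by each gene, in percent (vertical axis), for each library of Mettl3 KD (M3 KD), Mettl14 KD (M14 KD) and scramble (SCR), with bars for the mean and whiskers for the SD. The share of Ago1 is 20.1% to 21.7% in Mettl3 KD and 24.8% to 25.7% in scramble, while that of Ago2 is 53.8% to 55.5% over all libraries.

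Tnrc6a (ENSMUSG00000052707), a GW182 scaffold that binds Argonautes, had 134.0, 142.2, 142.0 and 135.1 CPM in Mettl3 KD. It had 143.5, 146.6, 149.5 and 153.1 CPM in Mettl14 KD and 145.4, 136.8 and 135.5 CPM in scramble. The Mettl3 KD libraries overlapped scramble, and the Mettl14 KD libraries did so through scramble replicate 1 alone. The change in log2 units was -0.01 ± 0.04 in Mettl3 KD (95% interval -0.08 to 0.07, edgeR adjusted p = 0.872) and 0.09 ± 0.04 in Mettl14 KD (95% interval 0.01 to 0.16, edgeR adjusted p = 0.0825). Without scramble replicate 1 the change in Mettl14 KD was 0.12 and passed.

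Tnrc6b (ENSMUSG00000047888), another GW182 scaffold, had 67.1, 71.6, 69.0 and 67.7 CPM in Mettl3 KD. It had 67.9, 71.2, 62.9 and 65.9 CPM in Mettl14 KD and 69.7, 65.8 and 66.1 CPM in scramble. The 3 groups overlapped, with log2 fold changes of 0.03 ± 0.04 in Mettl3 KD (95% interval -0.05 to 0.12, edgeR adjusted p = 0.574) and -0.00 ± 0.04 in Mettl14 KD (95% interval -0.09 to 0.08, edgeR adjusted p = 0.954). Tnrc6c, the remaining scaffold gene of the family, averaged 90.4 ± 1.21 CPM in Mettl3 KD, 102 ± 3.83 CPM in Mettl14 KD and 98.9 ± 4.00 CPM in scramble. It fell in Mettl3 KD against scramble by 0.13 ± 0.04 on the log2 scale (edgeR adjusted p = 0.0106), a call that ended without scramble replicate 1.

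**Figure D3:**
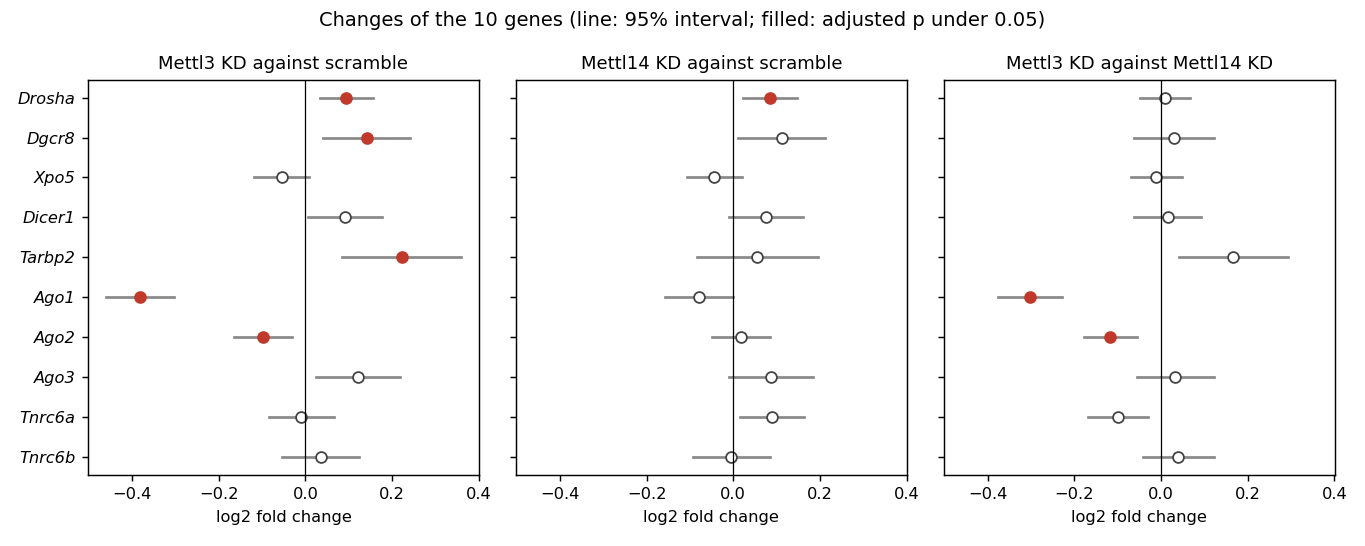
Log2 fold change of each member in Mettl3 KD against scramble, Mettl14 KD against scramble and Mettl3 KD against Mettl14 KD, with bars for the 95% interval and a line at 0. Ago1 lies at -0.38 in Mettl3 KD against scramble and at -0.30 in Mettl3 KD against Mettl14 KD, and every other member lies between -0.12 and 0.22.

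The knockdowns were then set against each other, which needs no scramble library for its means. Of the 10 members 2 passed, Ago1 and Ago2, both lower in Mettl3 KD, where 8.10% of all tested genes passed, 3.66% higher and 4.44% lower in Mettl3 KD. That background is 1145 genes, against 2125 without scramble replicate 2 and 713 to 762 on leaving out, in turn, replicates 1 and 4 of Mettl3 KD and replicates 1, 3 and 4 of Mettl14 KD. In 3 members, Ago1, Ago2 and Tnrc6a, the knockdowns did not overlap, all lower in Mettl3 KD, against 17.6% of all tested genes without overlap, 8.43% higher and 9.21% lower. For Ago1 the log2 difference was -0.30 ± 0.04 (95% interval -0.38 to -0.23, edgeR adjusted p = 1.43e-05), and 4.71% of all tested genes had a lower one. It passed under every setting tried, between -0.32 and -0.28. For Ago2 it was -0.12 ± 0.03 (edgeR adjusted p = 0.0182), which did not pass without Mettl3 KD replicate 1 or Mettl14 KD replicate 3. Tnrc6a was lower in all 4 Mettl3 KD libraries than in any Mettl14 KD library but did not pass (-0.10 ± 0.03, edgeR adjusted p = 0.0720). Tarbp2 overlapped between the knockdowns (0.17 ± 0.06, edgeR adjusted p = 0.0994), and both passed without scramble replicate 2, with differences of 0.17 for Tarbp2 and -0.10 for Tnrc6a. Both also passed in a fit of only the knockdowns (edgeR adjusted p = 0.0255 for Tarbp2 and 0.0112 for Tnrc6a). Without a filter on low counts Tarbp2 passed (edgeR adjusted p = 0.0488) and Tnrc6a did not (0.0855). For Drosha, Dgcr8, Xpo5, Dicer1, Ago3 and Tnrc6b the difference was between -0.01 and 0.04, with 95% intervals that reached from -0.07 to 0.12 at the widest.

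Other genes of the pathway were counted in 6 lists by role, beside the same background of 15.5% higher and 15.8% lower genes in Mettl3 KD and 10.1% higher and 10.8% lower genes in Mettl14 KD, all against scramble. Of 15 Microprocessor cofactors, proteins that work with Drosha and Dgcr8 or bring them to capped transcripts, 3 rose and 1 fell in Mettl3 KD, and 4 rose in Mettl14 KD. Ncbp2, a subunit of the nuclear cap-binding complex, averaged 90.8 ± 2.35 CPM in Mettl3 KD, 90.2 ± 3.30 CPM in Mettl14 KD and 79.4 ± 4.07 CPM in scramble. It rose in Mettl3 KD by 0.19 ± 0.04 (edgeR adjusted p = 0.000992) and in Mettl14 KD by 0.18 ± 0.04 (edgeR adjusted p = 0.00277) on the log2 scale. Erh, a dimeric partner of Dgcr8, rose in Mettl3 KD to 179 ± 1.67 CPM, against 158 ± 11.02 CPM in scramble (edgeR adjusted p = 0.00101). Srrt, the cap-complex protein also called Ars2, rose in Mettl14 KD to 213 ± 1.98 CPM, against 192 ± 10.3 CPM in scramble (edgeR adjusted p = 0.00399). The rises in this list numbered 5 in Mettl3 KD without scramble replicate 1 or 3 and 2 in Mettl14 KD without Mettl14 KD replicate 1. The single fall in Mettl3 KD held only without scramble replicate 2 or Mettl14 KD replicate 2 or 3, not without any of the other 8 libraries, and 1 gene fell in Mettl14 KD without scramble replicate 2.

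Of 16 tested genes for loading and partners of Argonaute, 6 rose and 1 fell in Mettl3 KD and 2 rose in Mettl14 KD. Hspa8, the constitutive Hsp70 chaperone that takes part in loading the duplex, averaged 1181 ± 8.23 CPM in Mettl3 KD, 1163 ± 14.3 CPM in Mettl14 KD and 1065 ± 30.0 CPM in scramble. It rose in both knockdowns, by 0.15 ± 0.03 (edgeR adjusted p = 0.000598) in Mettl3 KD and 0.13 ± 0.03 (edgeR adjusted p = 0.00385) in Mettl14 KD on the log2 scale. Hspa4, a nucleotide exchange factor of Hsp70, rose in both knockdowns, with 182 ± 6.17 CPM in Mettl3 KD libraries and 182 ± 4.11 CPM in Mettl14 KD libraries, against 164 ± 9.29 CPM in scramble. Ipo8, an importin known to bind Argonautes, rose in Mettl3 KD to 119 ± 4.77 CPM, against 103 ± 2.30 CPM in scramble (edgeR adjusted p = 0.000161). The count of rises in Mettl3 KD was between 4 and 8 with 1 library left out, and in Mettl14 KD it was 4 without scramble replicate 3. The single fall in Mettl3 KD held only without scramble replicate 1, Mettl3 KD replicate 3 or Mettl14 KD replicate 2, not without any of the other 8 libraries.

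Of 14 tested genes for end modification and decay of microRNAs, 1 rose and 1 fell in Mettl3 KD, and 2 rose and 1 fell in Mettl14 KD. Tsnax, a subunit of the C3PO nuclease, rose in both knockdowns, with 228 ± 7.01 CPM in Mettl3 KD libraries and 225 ± 5.04 CPM in Mettl14 KD libraries, against 208 ± 12.6 CPM in scramble. Its rise in Mettl14 KD (edgeR adjusted p = 0.0405) was lost in 7 of the 11 fits with 1 library left out, with scramble replicate 2 among them. Xrn2, a 5′ to 3′ exonuclease, fell in Mettl3 KD to 104 ± 0.955 CPM, against 111 ± 3.74 CPM in scramble (edgeR adjusted p = 0.0301), a call that ended in 6 of the 11 fits with 1 library left out, those without scramble replicates 1 and 3, Mettl3 KD replicates 1 to 3 and Mettl14 KD replicate 4. Pnpt1, polynucleotide phosphorylase, rose in Mettl14 KD to 50.9 ± 0.884 CPM, against 44.5 ± 1.30 CPM in scramble (edgeR adjusted p = 0.00137), and Tent4b, a nucleotidyltransferase, fell there to 48.6 ± 2.09 CPM, against 56.0 ± 1.54 CPM (edgeR adjusted p = 0.00130). Of 15 silencing effectors and P-body genes, 2 rose and 1 fell in Mettl3 KD and 1 rose in Mettl14 KD. Eif4e2, a cap-binding repressor of translation, rose in both, with 111 ± 3.16 CPM in Mettl3 KD libraries and 108 ± 2.52 CPM in Mettl14 KD libraries, against 98.5 ± 5.04 CPM in scramble, and Patl1, a decapping factor, fell in Mettl3 KD to 80.0 ± 1.58 CPM, against 86.5 ± 2.90 CPM in scramble, a call that ended without scramble replicate 2. The rise of Eif4e2 in Mettl14 KD ended without scramble replicate 2 or Mettl14 KD replicate 2 or 3. Of 5 remaining family members, Ago4 and Tnrc6c among them, Ran, the GTPase that drives Xpo5, rose in both knockdowns, with 661 ± 14.6 CPM in Mettl3 KD libraries and 659 ± 7.13 CPM in Mettl14 KD libraries, against 616 ± 30.8 CPM in scramble. The counts in these 3 lists were of 2 genes or fewer. The count of falls in Mettl3 KD was 1 in all 11 fits for silencing effectors and for the remaining family, but not always of the same gene. Patl1 did not pass without scramble replicate 2, and Tnrc6c did not pass without scramble replicate 1. The rise of Pnpt1 and the fall of Tent4b in Mettl14 KD passed in all 11, but other counts moved. For end modification and decay, the 2 rises in Mettl14 KD became 1 without scramble replicate 2 and in the fits leaving out replicates 1, 2 and 4 of Mettl3 KD and 2, 3 and 4 of Mettl14 KD in turn, and the fall in Mettl3 KD became 0 in the fits without scramble replicate 1, scramble replicate 3, Mettl3 KD replicates 2 and 3 in turn, and Mettl14 KD replicate 4. There the single rise in Mettl3 KD became 2 without scramble replicate 3, and the single fall in Mettl14 KD became 2 without scramble replicate 1. For silencing effectors, the 2 rises in Mettl3 KD became 1 without Mettl3 KD replicate 1, 2 or 4, and the rise in Mettl14 KD became 2 without scramble replicate 1 and 0 without Mettl14 KD replicate 2 or 3, while 2 genes fell in Mettl14 KD without scramble replicate 2. For the remaining family, the 2 rises in Mettl14 KD, of Ago4 and Ran, became 1 without scramble replicate 2, any Mettl3 KD library or Mettl14 KD replicate 1, 2 or 4 and 0 without Mettl14 KD replicate 3, and the rise of Ran in Mettl3 KD was lost without scramble replicate 2 and on leaving out Mettl3 KD replicates 1, 2 and 4 in turn.

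**Figure D4:**
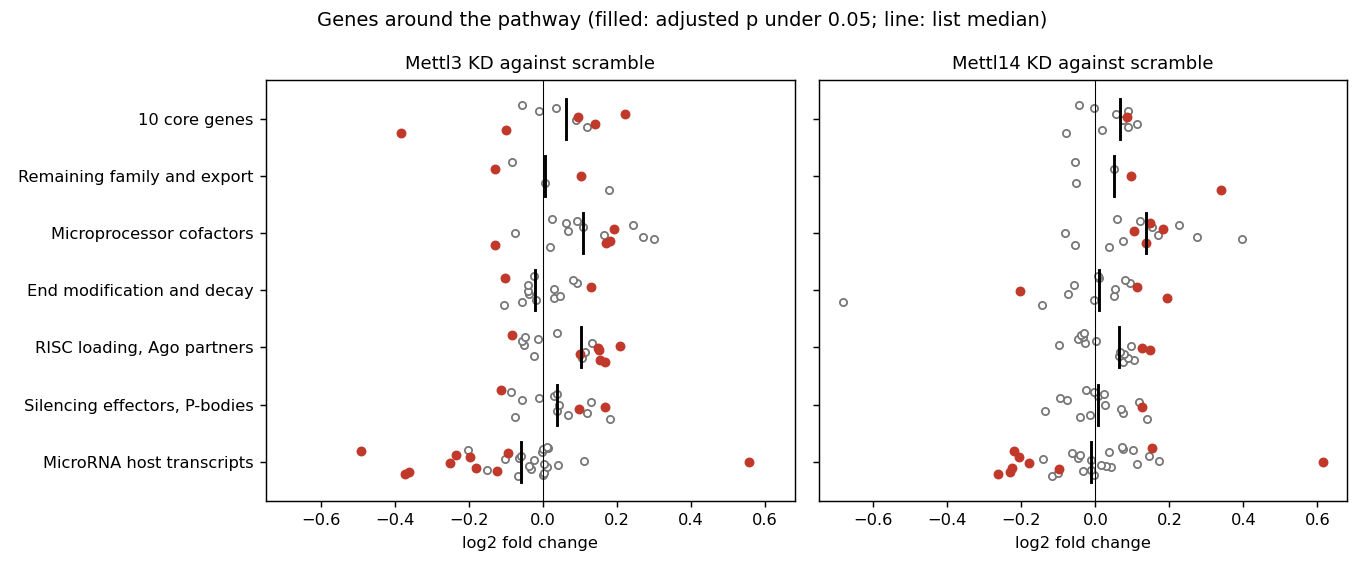
Log2 fold change of every tested gene of the 6 pathway lists and of the members in Mettl3 KD and in Mettl14 KD against scramble, with a point for each gene and filled points where the test was passed. The short vertical bars mark list medians. Among genes that passed, the host transcripts reach furthest in both directions, with Srebf2 at -0.49 in Mettl3 KD and Mir22hg at 0.56 in Mettl3 KD and 0.62 in Mettl14 KD.

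Transcripts that carry microRNA hairpins are the substrate of Drosha and Dgcr8. Of 29 tested genes listed as hosts, 9 fell and 1 rose in Mettl3 KD, and 7 fell and 2 rose in Mettl14 KD. Their median log2 fold change was -0.06 in Mettl3 KD and -0.01 in Mettl14 KD. Ptprn, which fell in Mettl3 KD, and Ppargc1b are in this list with no matched mature microRNA in the table used. The other 27 hold a mature microRNA within their RefSeq span. This match was by position on either strand, so some of these microRNAs may lie antisense to the host. Of these 27, 8 fell and 1 rose in Mettl3 KD (median -0.04), and 7 fell and 2 rose in Mettl14 KD (median -0.01). A messenger RNA library reports the host and not the microRNA cut from it. The 5′ or 3′ mature strands are shown for the 3 hosts described, from RefSeq on build GRCm38.p6, with the seed, bases 2 to 8, in capitals.
mmu-miR-33-5p (in Srebf2, chr15:82198127-82198147, plus strand): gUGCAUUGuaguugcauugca
mmu-miR-26a-5p (in Ctdsp2, chr10:126995543-126995564, plus strand): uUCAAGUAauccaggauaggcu
mmu-miR-22-3p (in Mir22hg, chr11:75463772-75463793, plus strand): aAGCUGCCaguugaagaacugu

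Srebf2, which encodes the transcription factor of cholesterol synthesis and hosts miR-33, averaged 345 ± 3.01 CPM in Mettl3 KD, 416 ± 10.4 CPM in Mettl14 KD and 485 ± 17.9 CPM in scramble. It fell by 0.49 ± 0.03 in Mettl3 KD (edgeR adjusted p = 5.59e-10) and by 0.22 ± 0.03 in Mettl14 KD (edgeR adjusted p = 4.94e-05) on the log2 scale. Ctdsp2, a phosphatase gene that hosts a copy of miR-26a, averaged 136 ± 2.62 CPM in Mettl3 KD, 148 ± 2.99 CPM in Mettl14 KD and 174 ± 7.80 CPM in scramble. It fell by 0.36 ± 0.03 in Mettl3 KD (edgeR adjusted p = 1.05e-07) and by 0.23 ± 0.03 in Mettl14 KD (edgeR adjusted p = 4.94e-05). Ctdspl, which hosts another copy with the same mature sequence, was among the hosts that fell in Mettl3 KD. It is outside the naming rule given below. Both Srebf2 and Ctdsp2 were lower in Mettl3 KD than in Mettl14 KD (edgeR adjusted p = 7.91e-06 and 0.0151), for Ctdsp2 not without Mettl14 KD replicate 3. Mir22hg, the noncoding host of miR-22 and named after its values were seen, rose in both knockdowns, with 5.60 ± 0.806 CPM in Mettl3 KD libraries and 5.84 ± 0.846 CPM in Mettl14 KD libraries, against 3.80 ± 0.244 CPM in scramble (edgeR adjusted p = 0.00297 and 0.00224). The falls in Mettl14 KD numbered 4 without Mettl14 KD replicate 1 or 4 and 5 without scramble replicate 2, and the rises there numbered 1 without scramble replicate 2.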

How the data were processed

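Stranded mRNA libraries were made from RNA purified by Trizol and columns, per the labels' protocols. The authors deposited 1 table with an estimated count per Ensembl gene and library (expected counts), made with kallisto per the submitters' processing notes and not scaled to a common total. The kallisto version, the build, the annotation and the summing of transcripts to genes are not stated by the sources used here. Of the values, 11.6% were not whole, and all were rounded before testing. Groups came from the sample titles. All 11 libraries entered a single fit in edgeR 4.0.16 (R 4.3.3) with TMM scaling, filterByExpr at a minimum count of 10, robust quasi-likelihood F-tests and Benjamini-Hochberg adjustment over 14133 genes at 0.05. The SE of a log2 fold change was its size over the root of F. Levels carry their SD and log2 fold changes their SE after ±, n being 4, 4 and 3. Gene symbols matched 48651 of 53947 rows. Replicate pairs differed beyond counting noise, with a chi-square per degree of freedom of at least 2.10. It was 15.1 and 13.6 for scramble replicate 2 paired with scramble replicates 1 and 3, and at most 3.83 for all other pairs. Alternatives were relative log expression (RLE) size factors, DESeq2 1.42.0, limma-voom (limma 3.58.1), no filter, a replicate block, fits of only 2 groups and each library left out. The procedure was also run on simulated data, with no outcome given here, so that run lends no weight to the calls. Members and lists were chosen with earlier results of these data known. The text names all members and, from each other list, the 2 genes with the smallest adjusted p that passed in each knockdown against scramble. Other host genes that the text names are outside this rule.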

Additional observations from a re-analysis of the deposited data

Results flagged for a closer look

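Of 58 groups of 4 libraries tested for a library far from the others, 2 stood out, and chance alone gives about 1 in 20. Hspa4 was at 191.6 CPM in Mettl3 KD replicate 2, and the gap to the next library was 0.836 of the range of its group, above the critical value of 0.829. Eif4e2 was at 115.5 CPM in the same library, with a gap of 0.893 of the range. None of the 10 microRNA processing and Argonaute genes stood out in this way.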

How the results depend on the processing

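No pairing by replicate number was seen: deviations from the group means correlated between -0.118 and 0.0674 over 10 same-numbered pairs of libraries, none over 0.1. Differently numbered pairs ran from -0.100 to 0.137. With 3 or 4 libraries in a group, this check cannot exclude a pairing. RLE size factors, DESeq2 and limma-voom gave the same counts of members called, 5 in Mettl3 KD and 1 in Mettl14 KD against scramble and 2 in Mettl3 KD against Mettl14 KD. Without a filter the counts against scramble were 3 in Mettl3 KD and 0 in Mettl14 KD, and likewise with the replicate block 3 and 0. Without a filter the lost calls were Drosha in both knockdowns and Ago2 in Mettl3 KD. With the block they were Dgcr8 (0.14, edgeR adjusted p = 0.0586) and Ago2 (-0.10, edgeR adjusted p = 0.0663) in Mettl3 KD and Drosha (0.09, edgeR adjusted p = 0.0804) in Mettl14 KD. In fits of only 2 groups the count was 0 for Mettl14 KD against scramble and 4 for Mettl3 KD against Mettl14 KD, with 2187 genes called in all in place of 1145. In the edgeR fits with 0 members called, 1 to 4 of the 10 had an unadjusted p under 0.05. With 1 library left out, members called ranged over 3 to 5, 0 to 2 and 1 to 4 in the 3 comparisons, and all genes called over 3705 to 4343, 2276 to 3091 and 713 to 2125. Of 180 member values under the other 6 settings, 168 kept direction and side of the threshold, 8 lost the call, 3 gained it, and 1 changed sign: Tnrc6b in Mettl14 KD, at 0.0019 with the replicate block. Signs also changed with 1 library left out among values that did not pass. Against scramble, these were Tnrc6a in Mettl3 KD (-0.023 to 0.022) and Tnrc6b (-0.035 to 0.024), Tarbp2 (-0.00055 to 0.13), Patl1 (-0.036 to 0.0025) and Xrn2 (-0.016 to 0.035) in Mettl14 KD. Between the knockdowns, they were Dgcr8 (-0.0055 to 0.048), Dicer1 (-0.0064 to 0.041), Xpo5 (-0.024 to 0.00066), Hspa4 (-0.019 to 0.018), Ncbp2 (-0.012 to 0.028) and Ran (-0.0039 to 0.020). The cause of these moves was not tested. The lowest member, Tarbp2, had 386 to 596 counts.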
